A study of Homo sapiens with 12 samples.

Results

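The factors described here are 2 transcriptional coactivators, YAP1 and WWTR1 (whose protein is called TAZ), the DNA-binding partners TEAD1, TEAD2, TEAD3 and TEAD4, and the vestigial-like cofactors VGLL1, VGLL3 and VGLL4. They were chosen by gene name among the rows of the deposited table that lie on assembled chromosomes, which gave 9 of 46931 genes, and all 9 passed the filter on low counts that left 18143 genes for testing. YAP and TAZ do not bind DNA themselves. They enter the nucleus when Hippo signalling is low and act through TEAD proteins, which sit on DNA with or without them, while Hippo kinases keep YAP and TAZ phosphorylated, bound in the cytoplasm and prone to degradation. VGLL proteins contact TEADs on an overlapping surface, and VGLL4 is known as a competitor of YAP. In mammary epithelium YAP and TAZ are known for their roles in basal cell identity and in the response of cells to crowding and to a stiff matrix.

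RNA was sequenced from MCF10A, an immortalized, non-tumour mammary epithelial line given as wild type. All 12 libraries were polyadenylated RNA from cells collected after a transfection of 48 h and a further 6 h in drug or solvent, and they form 4 groups of 3 named a, b and c. In siYT_XMU, a pair of siRNA sets against YAP and TAZ (11 nM) was followed by 5 µM XMU-MP1, an inhibitor of the Hippo kinases MST1 and MST2. In siYT_DMSO, the same siRNAs were followed by the solvent DMSO. In siC_XMU, a control siRNA (22 nM) was followed by 5 µM XMU-MP1, and in siC_DMSO it was followed by DMSO. Thus 4 comparisons and their interaction follow from the design: knockdown against control siRNA under either treatment, and XMU-MP1 against DMSO under either siRNA. Nothing in the labels says whether a, b and c are separate cultures, so p-values measure only the spread between these libraries, which may be technical. The 4 comparisons share libraries, so their values are set side by side and no agreement between them is counted as support.

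Total counts were between 8243351 and 67953633 per library. Library c of siYT_XMU stood apart: it had the lowest total, ribosomal RNA genes took 35.0% of its counts against 1.02 to 8.35% in the other 11, and it had counts for 15135 genes against 17950 to 20704. All 9 mammary epithelial markers checked reached 1 CPM (counts scaled to the size of the library) in every group. The 5 leukocyte markers summed to between 1.14 and 70.2 CPM in siYT_XMU, with the highest in library c, and to 1.13 to 3.19 CPM in siYT_DMSO, 0.16 to 0.366 CPM in siC_XMU and 0.413 to 0.994 CPM in siC_DMSO. CD3E was at 0 in siYT_XMU, LYZ in siYT_DMSO, PTPRC and CD3E in siC_XMU, and these 3 in siC_DMSO. The 6 fibroblast markers summed to 23.1 to 135 CPM in siYT_XMU, 22.8 to 62.0 CPM in siYT_DMSO, 15.8 to 27.6 CPM in siC_XMU and 11.3 to 24.3 CPM in siC_DMSO, and COL1A2 was at 0 in siYT_DMSO and siC_DMSO. The 4 endothelial markers summed to 1.26 to 8.49 CPM in siYT_XMU, with the highest in library c. Their sums were 0.918 to 2.10 CPM in siYT_DMSO, 0.922 to 1.24 CPM in siC_XMU and 1.91 to 3.82 CPM in siC_DMSO. KDR was at 0 in siYT_XMU, siYT_DMSO and siC_DMSO, and VWF in siC_XMU. The part of these markers in the results was not tested. In bulk libraries, fewer cells with a transcript and less of it per cell cannot be told apart.

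In the annotation of the deposited table (GRCh38.p13), YAP1 lies at chr11:102109957-102233424 on the plus strand and TEAD1 on the same chromosome at chr11:12674421-12944737, plus strand. WWTR1 (chr3:149517229-149724788), VGLL3 (chr3:86937973-86991149) and VGLL4 (chr3:11556067-11720539) share chromosome 3, all on the minus strand. TEAD2 lies at chr19:49340595-49362416 and TEAD3 at chr6:35473597-35497079, both on the minus strand. TEAD4 lies at chr12:2959397-3040676 and VGLL1 at chrX:136532215-136556799, both on the plus strand. VGLL4 overlaps ATG7, an autophagy gene on the opposite strand, over 8586 bases. ATG7 was well counted (182 to 5388 counts per library), and the sources used here do not say whether counting used strand, so reads of VGLL4 and ATG7 may not be separate. YAP1, TEAD3, TEAD4 and VGLL3 overlap no other gene of the table.

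Promoters are shown for the 2 factors with a match to the TEAD recognition letters and for TEAD3 and VGLL3. Of the factors that the siRNAs did not target, TEAD3 and VGLL3 passed the threshold in most comparisons below. As the comparisons share libraries, this served only to choose what is shown. RefSeq (GRCh38.p14) gave 13 promoters for 7 of the 9 genes. TEAD1 and TEAD4 had none and were not searched. The 250 bases before the annotated start were searched on both strands for GGAATG, which reads CATTCC on the other strand, the core bound by TEADs, and for TGANTCA, the core bound by AP-1, and a match is a description of the letters only. The TEAD core occurred in 2 of the 13 promoters and in 11.9% of all 35116 RefSeq promoters searched; the AP-1 core occurred in 0 of 13 and in 6.57% of all. The YAP1 stretch is chr11:102110197-102110446 (plus strand), with the match starting 162 bases before the RefSeq start. In the deposited table YAP1 starts earlier, at 102109957, so this stretch and its match lie inside the gene as placed there. The VGLL1 stretch is chrX:136531965-136532214 (plus strand), with the match 157 bases before the start. The TEAD3 stretch is chr6:35497080-35497329 and the VGLL3 stretch is chr3:86991150-86991399, both on the minus strand, with no match. Capitals mark the TEAD core, each sequence reads 5′ to 3′ on the gene's strand, and G and C make up 72% of the YAP1 stretch, 43.6% of VGLL1, 84% of TEAD3 and 67.6% of VGLL3.
YAP1: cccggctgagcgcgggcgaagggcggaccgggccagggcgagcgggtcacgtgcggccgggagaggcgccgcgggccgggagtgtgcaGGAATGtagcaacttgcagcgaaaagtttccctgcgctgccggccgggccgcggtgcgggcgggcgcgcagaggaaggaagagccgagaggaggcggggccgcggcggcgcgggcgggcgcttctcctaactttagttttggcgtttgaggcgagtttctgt
VGLL1: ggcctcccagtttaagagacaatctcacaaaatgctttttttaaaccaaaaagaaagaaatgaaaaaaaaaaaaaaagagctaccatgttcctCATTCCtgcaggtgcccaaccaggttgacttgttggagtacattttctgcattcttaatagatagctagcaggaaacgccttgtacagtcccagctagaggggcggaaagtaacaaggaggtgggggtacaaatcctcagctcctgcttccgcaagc
TEAD3: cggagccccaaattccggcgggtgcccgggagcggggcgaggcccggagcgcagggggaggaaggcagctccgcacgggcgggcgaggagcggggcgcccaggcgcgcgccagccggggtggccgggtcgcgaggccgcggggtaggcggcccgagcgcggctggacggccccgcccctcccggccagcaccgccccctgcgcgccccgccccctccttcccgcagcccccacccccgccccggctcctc
VGLL3: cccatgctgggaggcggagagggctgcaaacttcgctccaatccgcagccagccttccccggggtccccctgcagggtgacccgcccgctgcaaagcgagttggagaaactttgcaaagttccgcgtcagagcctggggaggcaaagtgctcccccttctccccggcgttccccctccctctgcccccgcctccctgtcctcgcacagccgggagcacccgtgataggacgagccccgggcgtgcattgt

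The targets of the siRNAs were low in every knockdown library. YAP1 had 6.63, 3.81 and 5.39 CPM in siYT_XMU and 12.6, 9.09 and 7.84 CPM in siYT_DMSO, against 132, 135 and 142 CPM in siC_XMU and 201, 223 and 193 CPM in siC_DMSO. The 4 groups did not overlap, and each XMU-MP1 group was below its DMSO group. The mean left by the knockdown was 3.87% of the control siRNA mean in XMU-MP1 and 4.79% in DMSO. The log2 fold change for the knockdown was -4.70 (SE 0.25, adjusted p = 9.3e-07) in XMU-MP1 and -4.39 (SE 0.24, adjusted p = 8.4e-07) in DMSO by edgeR's quasi-likelihood test with Benjamini-Hochberg adjustment over all genes tested, which also gives every adjusted p below.

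WWTR1 had 2.11, 1.24 and 0 CPM in siYT_XMU and 4.30, 4.47 and 3.66 CPM in siYT_DMSO, against 56.9, 60.3 and 56.0 CPM in siC_XMU and 34.6, 24.0 and 38.2 CPM in siC_DMSO. The 0 belongs to the shallow library c, in which 3 counts, the limit a count of 0 allows, would be 0.622 CPM. No knockdown library overlapped a control siRNA library. TAZ transcript was thus left at 1.93% of the control siRNA mean in XMU-MP1, with library c entered as 0, or up to 2.29% with library c at that limit, and at 12.8% in DMSO. The log2 fold change was -5.43 (SE 0.54, adjusted p = 2.3e-05) in XMU-MP1 and -2.96 (SE 0.47, adjusted p = 0.00051) in DMSO. An exact two-sided permutation test on CPM gave p = 0.1 for each gene under each treatment, which is the smallest p that 3 libraries against 3 allow.

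**Figure D1:**
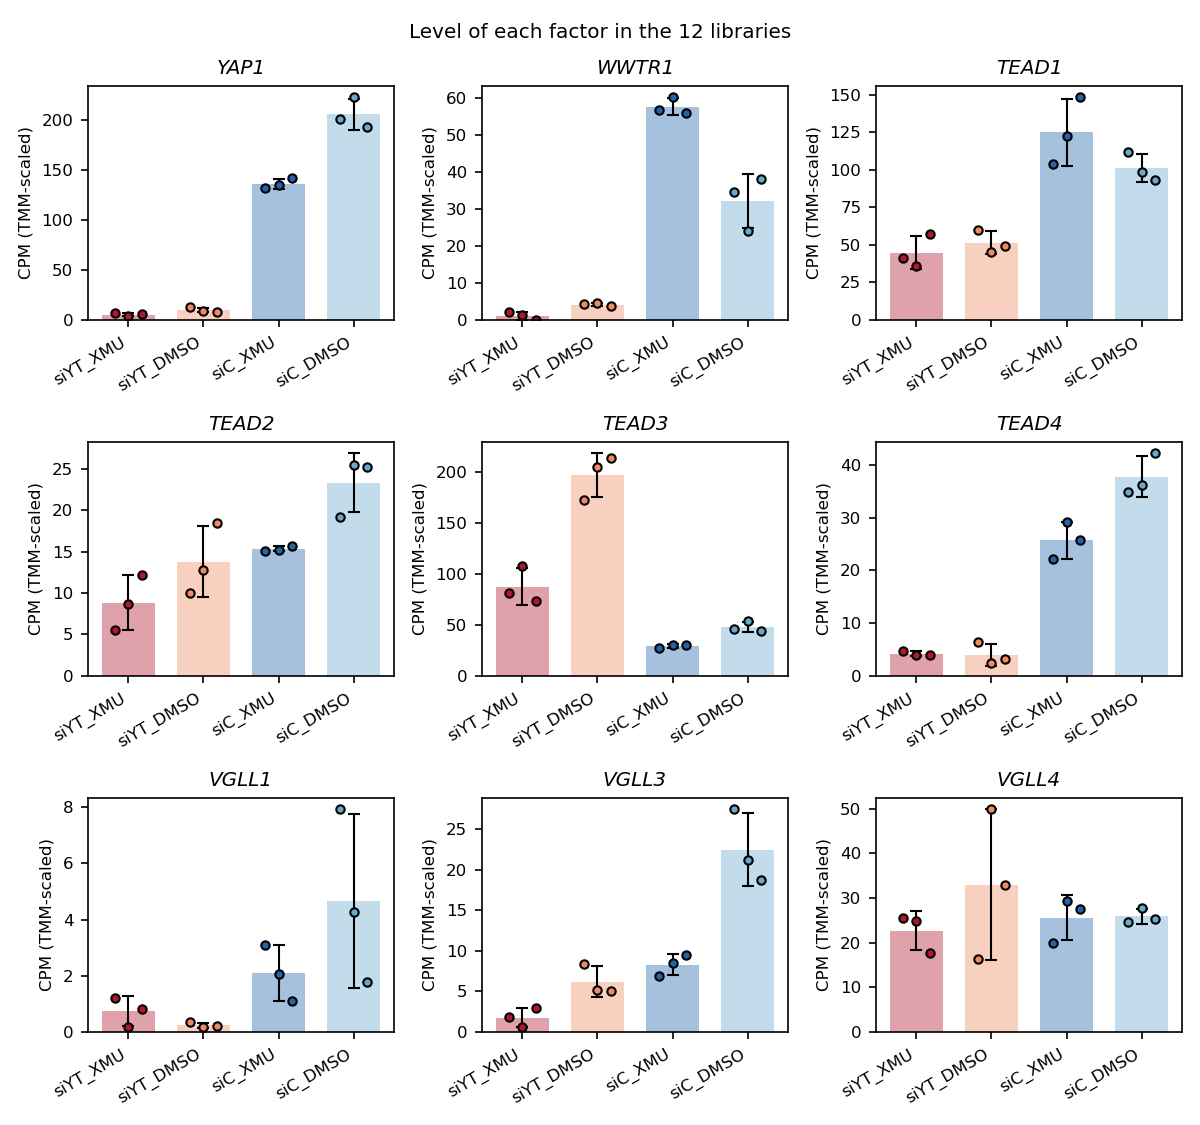
Level of each factor in CPM after TMM scaling (y axes, linear, each with its own range) in the 4 groups; points are libraries a, b and c from left to right, bars are means and error bars are SD (n = 3). YAP1, WWTR1 and TEAD4 are low in both knockdown groups, TEAD3 is high there, and VGLL4 spreads widely in siYT_DMSO.

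Of the 7 factors that the siRNAs did not target, 1 rose and 4 fell with the knockdown in DMSO, and the CPM ranges of the groups did not overlap for 6. With the targets included, by the adjusted p, 6 of the 9 genes fell and 1 rose, 7 in all or 8 at an unadjusted p under 0.05, against 32.1% called among all genes tested. The CPM ranges of the groups did not overlap for 8 of the 9, against 54.1% of all genes tested. The median log2 fold change was -1.86 over the 9 genes, -0.98 over the 7 not targeted and 0.02 over all genes tested. Among the TEADs, 1 rose, 2 fell and TEAD2 did not pass.

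TEAD3, a TEAD known for high expression in placenta, had 173, 204 and 213 CPM in siYT_DMSO, against 46.4, 53.8 and 43.7 CPM in siC_DMSO. All 3 knockdown libraries were above all 3 controls, and the log2 fold change was 2.04 (SE 0.17, adjusted p = 8.4e-06). None of the other 8 rose.

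TEAD4 had 6.34, 2.36 and 3.28 CPM in siYT_DMSO, against 35.0, 36.1 and 42.3 CPM in siC_DMSO, again without overlap. It fell by 3.25 on the log2 scale (SE 0.33, adjusted p = 2.5e-05). TEAD1 had 60.0, 45.0 and 48.9 CPM in siYT_DMSO, against 112, 98.5 and 93.5 CPM in siC_DMSO, and fell by 0.98 (SE 0.20, adjusted p = 0.0028). TEAD2 had 10.1, 12.8 and 18.5 CPM in siYT_DMSO, just below the 19.2, 25.5 and 25.2 CPM of siC_DMSO. Its log2 fold change of -0.75 (SE 0.30) missed the threshold at an adjusted p of 0.075. That call is close to the threshold: TEAD2 passed under 6 of 8 other settings, with an adjusted p of 0.045 by DESeq2 and 0.024 by limma-voom, and without library c of siYT_XMU (0.037), c of siYT_DMSO (0.039) or a of siYT_XMU (0.045).

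Of the vestigial-like cofactors, 2 fell in DMSO and VGLL4 did not pass. VGLL3, which in human cells can bind TEADs in place of YAP, had 8.38, 5.22 and 5.03 CPM in siYT_DMSO, against 27.5, 21.3 and 18.7 CPM in siC_DMSO, and fell by 1.86 on the log2 scale (SE 0.45, adjusted p = 0.0078). VGLL1 was scarce: it had 8, 8 and 12 counts in siYT_DMSO, or 0.334, 0.155 and 0.199 CPM, against 518, 336 and 129 counts, or 7.93, 4.28 and 1.78 CPM, in siC_DMSO. The groups did not overlap, although the control libraries themselves spread widely, and VGLL1 fell by 4.37 (SE 0.86, adjusted p = 0.0021).

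VGLL4 had 16.2, 49.9 and 32.8 CPM in siYT_DMSO, which spans the 24.6, 27.9 and 25.3 CPM of siC_DMSO. Its log2 fold change of 0.35 (SE 0.33) had an adjusted p of 0.47 and became -0.08 without library b of siYT_DMSO. The overlapping ATG7 had 71.4, 68.2 and 89.1 CPM in siYT_DMSO, against 28.7, 27.8 and 34.1 CPM in siC_DMSO. It rose by 1.33 (adjusted p = 0.00044). Whether ATG7 reads entered the VGLL4 counts was not tested.

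Under XMU-MP1 the knockdown gave 1 gene that rose and 5 that fell, 6 of 9 in all or 7 at an unadjusted p under 0.05, where 36.4% of all genes tested were called. Without the siRNA targets, 1 rose and 3 fell of 7. The groups did not overlap for 7 of the 9, or 5 of the 7 not targeted, against 45.6% of all genes. TEAD3 had 81.0, 108 and 72.9 CPM in siYT_XMU, against 27.5, 29.7 and 30.5 CPM in siC_XMU, and rose by 1.58 (SE 0.17, adjusted p = 4.0e-05). TEAD4 had 4.70, 3.92 and 3.94 CPM in siYT_XMU, against 22.2, 29.2 and 25.9 CPM in siC_XMU, and fell by 2.61 (SE 0.33, adjusted p = 0.00011). Neither gene had overlapping groups.

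TEAD1 had 41.5, 35.8 and 57.0 CPM in siYT_XMU, against 104, 123 and 148 CPM in siC_XMU, and fell by 1.49 (SE 0.21, adjusted p = 0.0002). TEAD2 had 5.58, 8.62 and 12.2 CPM in siYT_XMU, all below the 15.1, 15.2 and 15.7 CPM of siC_XMU. Its log2 fold change of -0.83 (SE 0.31) had an adjusted p of 0.053, and of 0.012 without library c of siYT_XMU, 0.047 without a of siYT_DMSO and 0.046 without c of siYT_DMSO. TEAD2 also passed by DESeq2 (0.045) and limma-voom (0.015).

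VGLL3 had 1.79, 0.561 and 2.90 CPM in siYT_XMU, from only 61, 29 and 14 counts, against 6.88, 8.49 and 9.53 CPM in siC_XMU. It fell by 2.39 (SE 0.49, adjusted p = 0.0027). The call held in all 20 other fits, but the log2 fold change ranged from -2.93 to -0.67 over them. VGLL1 had 1.20, 0.155 and 0.829 CPM in siYT_XMU, and 3.09, 2.07 and 1.09 CPM in siC_XMU, where the lowest control lay inside the knockdown range. Its log2 fold change was -1.55 (SE 0.78, adjusted p = 0.14). It passed on both scales of FPKM, the deposited value scaled by depth and transcript length, with an adjusted p of 0.021 on log2(FPKM + 0.1) and 0.045 on log2(FPKM + 1). VGLL4 had 25.4, 24.9 and 17.6 CPM in siYT_XMU and 19.9, 29.4 and 27.4 CPM in siC_XMU, overlapping groups with a log2 fold change of -0.17 (SE 0.33, adjusted p = 0.73).

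**Figure D2:**
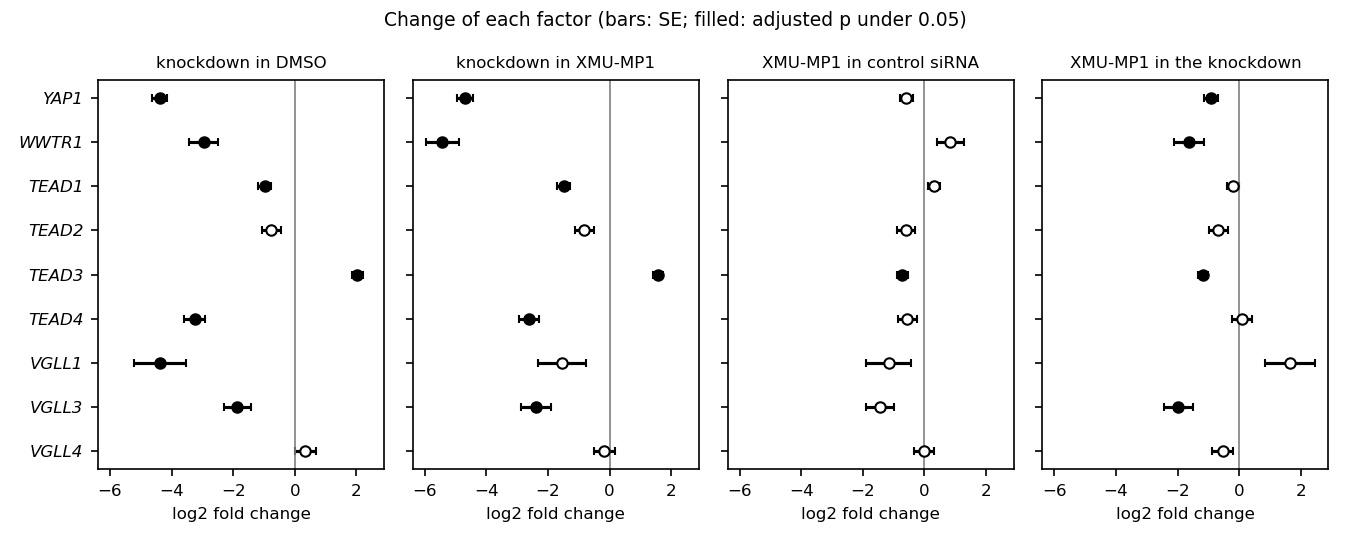
Log2 fold change (x axis) of the 9 factors in each comparison, knockdown over control siRNA in the first 2 panels and XMU-MP1 over DMSO in the others; bars are SE and filled points have an adjusted p under 0.05. TEAD3 lies to the right in both knockdown panels, at 2.04 and 1.58, and to the left in both XMU-MP1 panels, at -0.71 and -1.17.

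Within control siRNA cells, 6 h of XMU-MP1 moved 1 of the 9 genes past the threshold, or 3 at an unadjusted p under 0.05, where 9.26% of all genes tested were called. The groups of libraries did not overlap for 6 of the 9, against 40.7% of all genes. TEAD3 was the gene that passed, at 27.5, 29.7 and 30.5 CPM in siC_XMU against 46.4, 53.8 and 43.7 CPM in siC_DMSO, and it fell by 0.71 on the log2 scale (SE 0.17, adjusted p = 0.022). The call ended (adjusted p in brackets) without library a (0.064) or b (0.10) of siC_DMSO and without a (0.062), b (0.087) or c (0.064) of siC_XMU. On log2(FPKM + 1) its adjusted p was 0.11, and it was 0.12 on log2(FPKM + 0.1).

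The 2 coactivators stood on opposite sides in control siRNA cells, each without overlap between treatments. YAP1 was lower in siC_XMU (132 to 142 CPM) than in siC_DMSO (193 to 223 CPM), with a log2 fold change of -0.59 (SE 0.21) and an adjusted p of 0.11. WWTR1 was higher in siC_XMU (56.0 to 60.3 CPM) than in siC_DMSO (24.0 to 38.2 CPM), with a log2 fold change of 0.84 (SE 0.44) and an adjusted p of 0.28. Neither passed. The fit restricted to these 2 groups gave an adjusted p of 0.0062 for YAP1 and of 0.014 for WWTR1. For limma-voom these were 0.011 and 0.013, and without library c of siYT_XMU that of WWTR1 was 0.032.

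VGLL3 had 6.88, 8.49 and 9.53 CPM in siC_XMU, against 27.5, 21.3 and 18.7 CPM in siC_DMSO, a gap with no overlap. Its log2 fold change of -1.44 (SE 0.45) had an adjusted p of 0.067, and of 0.032 without library c of siYT_XMU and 0.013 without its library b. VGLL3 passed in 5 of 8 other settings: DESeq2 (0.012), limma-voom (0.0031), log2(FPKM + 0.1) (0.030), log2(FPKM + 1) (0.0039) and the fit on only the groups compared (0.0050). TEAD1 (0.30, adjusted p = 0.41), TEAD2 (-0.60, adjusted p = 0.25), TEAD4 (-0.55, adjusted p = 0.31), VGLL1 (-1.16, adjusted p = 0.39) and VGLL4 (-0.02, adjusted p = 0.997) did not pass.

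Within the knockdown, XMU-MP1 lowered 4 of the 9 genes, or 5 at an unadjusted p under 0.05, where 12.1% of all genes tested were called, and it raised 0. Without the siRNA targets, 0 rose and 2 fell of 7, where 7.92% of all genes tested fell. The groups did not overlap for 4 of the 9, or 2 of the 7 not targeted, against 27.3% of all genes. TEAD3 had 81.0, 108 and 72.9 CPM in siYT_XMU, against 173, 204 and 213 CPM in siYT_DMSO, and fell by 1.17 (SE 0.17, adjusted p = 0.0013), a call kept in all 20 other fits. VGLL3 had 1.79, 0.561 and 2.90 CPM in siYT_XMU, against 8.38, 5.22 and 5.03 CPM in siYT_DMSO, and fell by 1.97 (SE 0.49, adjusted p = 0.021). It did not pass without library a of siYT_DMSO (adjusted p = 0.065) or in the fit on only the groups compared (0.16). Its log2 fold change ranged from -2.42 to -0.46 over the 20 other fits.

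What was left of the siRNA targets was also lower with XMU-MP1. YAP1 fell by 0.90 on the log2 scale (SE 0.22, adjusted p = 0.022) between 3.81 to 6.63 CPM in siYT_XMU and 7.84 to 12.6 CPM in siYT_DMSO, and it did not pass without library a of siYT_DMSO (adjusted p = 0.072) or b of siYT_XMU (0.062), by limma-voom (0.062) or in the fit on only the groups compared (0.24). WWTR1 fell by 1.62 (SE 0.48, adjusted p = 0.046) between 0 to 2.11 CPM in siYT_XMU and 3.66 to 4.47 CPM in siYT_DMSO. This last call held in 2 of 12 fits that left out a library, those without library a or c of siYT_XMU, and had an adjusted p of up to 0.11 in the other 10. It also ended by limma-voom (0.093) and in the fit on only the groups compared (0.30).

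The remaining 5 factors did not pass in that comparison. TEAD2 had a log2 fold change of -0.68 (SE 0.30, adjusted p = 0.18), TEAD1 of -0.20 (SE 0.20, adjusted p = 0.57), VGLL4 of -0.54 (SE 0.33, adjusted p = 0.33) and TEAD4 of 0.09 (SE 0.32, adjusted p = 0.90). VGLL1 had 1.20, 0.155 and 0.829 CPM in siYT_XMU and 0.334, 0.155 and 0.199 CPM in siYT_DMSO, which are 41, 8 and 4 counts against 8, 8 and 12 counts, and its log2 fold change of 1.66 (SE 0.82) had an adjusted p of 0.22.

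The interaction asks whether XMU-MP1 acted differently in knockdown and control siRNA cells. By edgeR's quasi-likelihood test 0 of the 9 genes passed, 2 had an unadjusted p under 0.05, and 2.59% of all genes tested were called, while DESeq2 and limma-voom each called 1. WWTR1 had the lowest adjusted p, 0.066, with an interaction of -2.46 (SE 0.65) on the log2 scale. It rests on libraries with few counts, since WWTR1 had 72, 64 and 0 counts in siYT_XMU, and the adjusted p was 0.00018 by DESeq2, 0.047 by limma-voom, 0.013 without library c of siYT_XMU and 0.034 without its library a. VGLL1 had an interaction of 2.82 (SE 1.10, adjusted p = 0.20) and TEAD3 of -0.46 (SE 0.24, adjusted p = 0.33).

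Levels of different genes were set side by side only in FPKM, which accounts for transcript length. In siYT_XMU, TEAD3 averaged 22.2 ± 8.19 FPKM (SD, n = 3 here and below) and no other factor averaged above the 3.43 ± 0.40 FPKM of TEAD1. In siYT_DMSO, TEAD3 averaged 64.6 ± 10.5 FPKM, far above VGLL4 at 5.82 ± 3.26, TEAD1 at 5.28 ± 0.44 and TEAD2 at 4.56 ± 1.56 FPKM, which overlapped one another. TEAD4 (2.20 ± 1.01 FPKM) overlapped TEAD2 and YAP1 (1.52 ± 0.29 FPKM) there, and WWTR1, VGLL3 and VGLL1 stayed under 1 FPKM.

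Control siRNA cells had another order. In siC_XMU, YAP1 led at 23.1 ± 1.68 FPKM, TEAD4 (15.8 ± 2.33 FPKM) overlapped TEAD1 (14.0 ± 3.02 FPKM), and WWTR1 (10.5 ± 0.42 FPKM) overlapped TEAD3 (10.3 ± 0.89 FPKM). In siC_DMSO, YAP1 led at 36.8 ± 2.63 FPKM. TEAD4 (24.4 ± 2.48), TEAD3 (17.9 ± 1.87), TEAD1 (11.96 ± 1.19) and TEAD2 (8.73 ± 1.29 FPKM) followed, each without overlap with the one before. The lowest TEAD2 library, at 7.25 FPKM, lay below the highest of WWTR1 (7.32 FPKM) and of VGLL1 (7.76 FPKM). WWTR1, VGLL4 and VGLL1 lay between 4.54 and 6.20 FPKM on average and overlapped, and VGLL3 was lowest at 2.16 ± 0.45 FPKM, within reach of the lowest VGLL1 library.

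The make-up of TEAD transcripts therefore differed between knockdown and control siRNA cells. TEAD3 made up 75.1, 80.1 and 66.4% of the summed TEAD FPKM in siYT_XMU and 81.2, 86.8 and 84.3% in siYT_DMSO, against 24.1, 22.1 and 22.1% in siC_XMU and 28.7, 31.0 and 25.4% in siC_DMSO. TEAD4 made up 5.04 to 7.52% in siYT_XMU and 1.71 to 5.15% in siYT_DMSO, against 32.4 to 37.6% in siC_XMU and 36.1 to 42.6% in siC_DMSO. No knockdown library overlapped a control siRNA library in either share. These shares are ratios within a library, so they do not depend on the scaling between libraries.

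**Figure D3:**
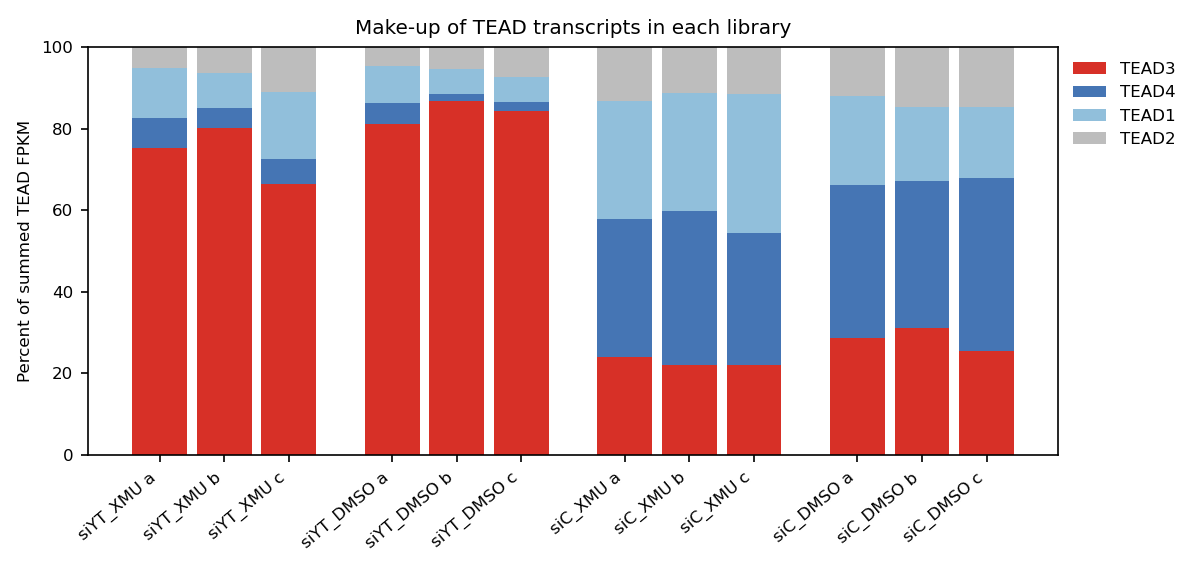
Share of each TEAD gene in the summed TEAD FPKM (y axis, percent, from 0 to 100) in each of the 12 libraries, grouped by condition. TEAD3 takes 66.4 to 86.8% in the 6 knockdown libraries and 22.1 to 31.0% in the 6 control siRNA libraries.

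TEAD1 took a share of 12.4 ± 3.98% in siYT_XMU and 7.04 ± 1.64% in siYT_DMSO, against 30.6 ± 3.00% in siC_XMU and 19.1 ± 2.52% in siC_DMSO. Its share was thus higher with XMU-MP1 than with DMSO under control siRNA, where the ranges did not overlap (28.8 to 34.1% against 17.2 to 21.9%). The share was not tested, and TEAD1 itself did not pass there (0.30, adjusted p = 0.41). In that comparison the CPM ranges of 40.7% of all genes tested did not overlap either. In the knockdown the TEAD1 shares overlapped (8.46 to 16.4% against 6.05 to 8.94%). The sum over the 4 TEADs was 29.6 ± 8.58 FPKM in siYT_XMU, 76.6 ± 10.5 in siYT_DMSO, 45.5 ± 5.94 in siC_XMU and 62.9 ± 1.97 FPKM in siC_DMSO. After division by the TMM factors these sums were 37.4 ± 5.09, 74.9 ± 6.61, 41.4 ± 4.18 and 54.2 ± 1.97, so the total was lower with XMU-MP1 under either siRNA on both scales.

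Coactivator transcripts relative to TEAD transcripts followed the siRNA. The summed FPKM of YAP1 and WWTR1 over that of the TEADs was 0.0270 ± 0.0111 in siYT_XMU and 0.0297 ± 0.00826 in siYT_DMSO, against 0.743 ± 0.0614 in siC_XMU and 0.683 ± 0.0271 in siC_DMSO. VGLL4 over the same coactivator sum was 4.05 ± 1.19 in siYT_XMU and 2.70 ± 1.51 in siYT_DMSO, against 0.142 ± 0.0254 in siC_XMU and 0.119 ± 0.00483 in siC_DMSO. Knockdown of the coactivators sets both ratios in part, so they describe proportions and are not separate evidence on TEAD or VGLL4.

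The share of WWTR1 in the coactivator sum stood higher with XMU-MP1 than with DMSO in control siRNA cells. WWTR1 made up 31.7, 32.4 and 29.8% of the summed YAP1 and WWTR1 FPKM in siC_XMU, against 15.6, 10.4 and 17.5% in siC_DMSO, with no overlap. The share itself was not tested, and neither of its 2 genes passed in that comparison, where the CPM ranges of 40.7% of all genes tested did not overlap either. In the knockdown it made up 25.5 and 25.4% in libraries a and b of siYT_XMU, with no value for library c where WWTR1 was listed at 0, and 26.5, 34.6 and 33.4% in siYT_DMSO.

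**Figure D4:**
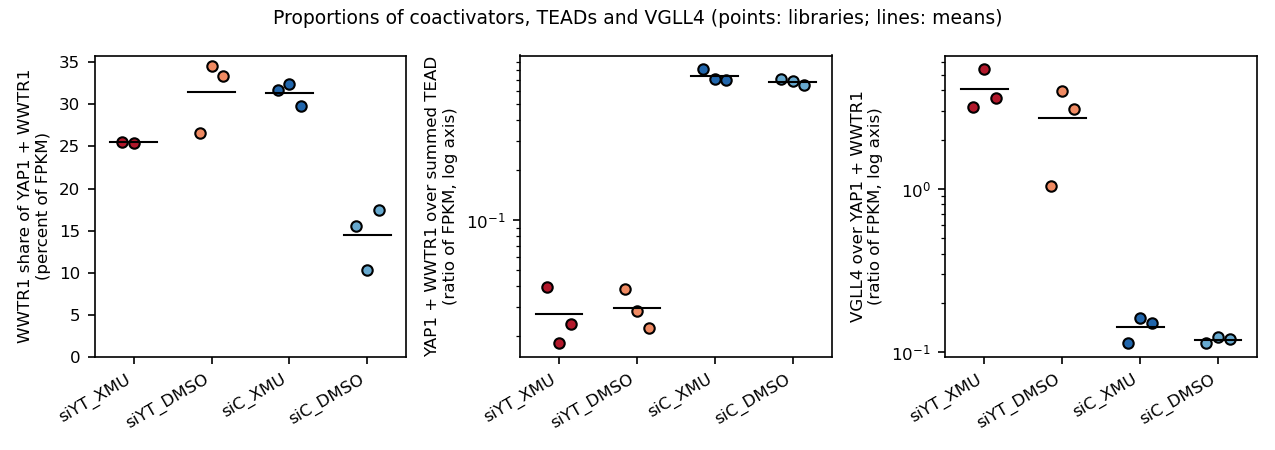
Proportions of FPKM by group: WWTR1 as a percentage of YAP1 plus WWTR1 (left, linear axis from 0), YAP1 plus WWTR1 over the summed TEADs (middle, log axis) and VGLL4 over YAP1 plus WWTR1 (right, log axis); points are libraries and lines are means. The WWTR1 share is lowest in siC_DMSO, at 10.4 to 17.5%, and library c of siYT_XMU has no point in the left panel.

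Genes whose log2 CPM followed each TEAD or VGLL gene most closely over the 12 libraries were sought among 8173 genes, and r is a description over libraries that share groups and depth. For TEAD3 these were UBE2H, which encodes a ubiquitin-conjugating enzyme (r = 0.990), and ESRP2, an epithelial splicing regulator (r = 0.981). For TEAD4 they were CAV1, the main protein of caveolae (r = 0.990), and PXDN, a matrix peroxidase (r = 0.989). CAV1 averaged 62.8 CPM in siYT_XMU and 49.5 CPM in siYT_DMSO, against 416 CPM in siC_XMU and 600 CPM in siC_DMSO. ESRP2 averaged 170 CPM in siYT_XMU and 377 CPM in siYT_DMSO, against 59.4 CPM in siC_XMU and 98.0 CPM in siC_DMSO.

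TEAD1 was followed most closely by DCK (r = 0.981), a nucleoside kinase, and WBP11 (r = 0.975), a splicing factor. TEAD2 was followed by TNFRSF10A (r = 0.958), a death receptor for TRAIL, and MPZL1 (r = 0.945), a cell surface glycoprotein. VGLL1 had TRUB1 (r = 0.947) and POLR1F (r = 0.945), VGLL3 had MTPAP (r = 0.977) and B4GALT5 (r = 0.976), and VGLL4 had ZHX1 (r = 0.839) and NBR1 (r = 0.812). When each library was left out in turn, DCK and UBE2H stayed among the 2 most alike genes in all 12 cases, while the second gene changed more often.

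The gene lists from here on were chosen with earlier results of these data known, so their counts are descriptions. Around the factors, upstream Hippo genes were on balance lower in the knockdown. Of 25 tested of 26 listed, 2 rose and 11 fell in XMU-MP1, and 2 rose and 11 fell in DMSO. In all genes tested, 17.7% rose and 18.6% fell in XMU-MP1, and 16.1% rose and 16.0% fell in DMSO. The median log2 fold change of the list was -0.91 in XMU-MP1 and -0.82 in DMSO, against 0.04 and 0.02 over all genes. Without library c of siYT_XMU, 14 fell in XMU-MP1 and 13 in DMSO, where 4 rose. On both FPKM scales 18 fell in XMU-MP1.

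AJUBA, a LIM protein that restrains LATS kinases, averaged 7.75 ± 0.61 CPM in siYT_DMSO, against 110 ± 19.8 CPM in siC_DMSO, and fell by 3.83 (adjusted p = 4.1e-05). STK3, the gene of the kinase MST2, fell to 6.82 ± 0.52 CPM in siYT_DMSO, against 24.4 ± 2.59 CPM in siC_DMSO (adjusted p = 6.3e-05). The scaffold gene WWC2 fell (-1.81, adjusted p = 6.5e-05), while its relative WWC3 rose by 3.25 (adjusted p = 0.00042), with 27.9 ± 5.98 CPM in siYT_DMSO and 2.92 ± 1.32 CPM in siC_DMSO. MAP4K4, a kinase that can act on LATS beside MST, rose by 1.19 (adjusted p = 0.0027). With XMU-MP1 in control siRNA cells, 1 of the 25 rose and 1 fell, where 725 of the 18143 genes tested rose and 955, or 5.26%, fell. WWC1 fell (-1.14, adjusted p = 0.020), a call that held in 15 of 20 other fits with an adjusted p of up to 0.083. LATS2, a kinase gene that is also a YAP target, rose by 0.91 at an adjusted p of 0.048, a call that held in 8 of 20 other fits. In the knockdown XMU-MP1 gave 0 that rose and 2 that fell, or 1 and 5 without library c of siYT_XMU, where 761 of the 18143 genes rose and 1437, or 7.92%, fell. Without library b or c of siYT_DMSO, 1 fell there.

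All 22 genes of a published YAP and TAZ target signature were tested. In the knockdown 0 rose and 12 fell in XMU-MP1, or 15 without library c of siYT_XMU, and 0 rose and 15 fell in DMSO. Over all genes tested, 17.7% rose and 18.6% fell in XMU-MP1, and 16.1% rose and 16.0% fell in DMSO. The median log2 fold change was -1.02 in XMU-MP1 and -1.66 in DMSO, against 0.04 and 0.02 over all genes. CCN1, a matricellular protein gene, had 2.04 ± 0.83 CPM in siYT_DMSO, against 66.1 ± 8.04 CPM in siC_DMSO, and fell by 5.03 (adjusted p = 8.0e-05). AMOTL2, an angiomotin that holds YAP in the cytoplasm, fell by 3.07 (adjusted p = 7.4e-05), and MYOF, a membrane repair gene, by 1.15 (adjusted p = 0.00015). AMOTL2, LATS2 and PTPN14 are also on the upstream list.

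With XMU-MP1 in control siRNA cells 2 of the 22 signature genes rose and 2 fell, where 725 of the 18143 genes tested rose and 955 fell. The counts were 1 and 1 without library b or c of siC_DMSO or b of siC_XMU, while limma-voom gave 5 and 5 and the fit on only the groups compared 6 and 4. Without a of siC_DMSO, c of siC_XMU or a or c of siYT_DMSO 1 rose, and without a of siC_XMU 1 fell. CCN2, the gene of connective tissue growth factor, rose by 4.79 (adjusted p = 0.0067), with 177 ± 111 CPM in siC_XMU and 6.42 ± 2.02 CPM in siC_DMSO. FJX1 fell by 3.05 (adjusted p = 0.0038) and F3, the tissue factor gene, fell by 2.05 (adjusted p = 0.020). The F3 call held in 16 of 20 other fits, with an adjusted p of up to 0.097, and the CCN2 and FJX1 calls in all 20. In the knockdown 4 rose and 3 fell, or 3 and 5 without library c of siYT_XMU, where 761 of the 18143 genes tested rose and 1437 fell. Without library b or c of siYT_DMSO 2 rose, and in the fit on only the groups compared 1 rose and 0 fell. CCN2 rose there as well (3.53, adjusted p = 0.026), as did CCN1 (4.26, adjusted p = 0.0010), while FJX1 fell (-2.75, adjusted p = 0.0068).

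Genes that hold YAP and TAZ in the cytoplasm or mark them for degradation, 14-3-3 proteins, CK1 kinases and β-TrCP, numbered 11, all tested. In the knockdown 3 rose and 2 fell in XMU-MP1, and 5 rose and 1 fell in DMSO, but 0 rose on either FPKM scale. Over all genes tested, 17.7% rose and 18.6% fell in XMU-MP1, and 16.1% rose and 16.0% fell in DMSO. The 5 that rose in DMSO became 3 without library b of siC_DMSO or c of siYT_DMSO. SFN, the gene of 14-3-3σ, had 1665 ± 307 CPM in siYT_DMSO, against 886 ± 46.8 CPM in siC_DMSO, and rose by 0.91 (adjusted p = 0.0050), and YWHAQ (0.72, adjusted p = 0.0051) and BTRC (0.94, adjusted p = 0.0052) rose as well. YWHAH fell by 1.37 (adjusted p = 1.0e-04) and did so on the FPKM scales too. With XMU-MP1, 0 rose and 1 fell in control siRNA cells, where SFN fell by 1.04 (adjusted p = 0.0098), and 1 rose and 2 fell in the knockdown, against 725 and 955, and 761 and 1437, of the 18143 genes tested. In the knockdown 0 rose when any of 9 of the 12 libraries was left out, and 1 fell without c of siYT_DMSO. The SFN call held in 18 of 20 other fits and not without library b of siC_XMU or on log2(FPKM + 0.1).

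Of 16 other DNA-binding partners of YAP or TAZ, 13 were tested. In the knockdown 5 rose and 1 fell in XMU-MP1, or 5 and 2 without library c of siYT_XMU, and 6 rose and 4 fell in DMSO. Over all genes tested, 17.7% rose and 18.6% fell in XMU-MP1, and 16.1% rose and 16.0% fell in DMSO. In DMSO 3 rose and 3 fell without library a of siC_DMSO or c of siYT_DMSO, and 3 rose and 2 fell without c of siC_DMSO or b of siYT_DMSO. In XMU-MP1 3 rose and 2 fell on both FPKM scales. The AP-1 genes JUNB, FOS and JUN had the smallest adjusted p of those that rose in DMSO. JUNB had 419 ± 47.2 CPM in siYT_DMSO, against 76.6 ± 12.5 CPM in siC_DMSO, and rose by 2.45 (adjusted p = 1.3e-05), FOS rose by 3.06 (adjusted p = 8.2e-05) and JUN by 1.37 (adjusted p = 0.0011). RUNX1 (-1.32, adjusted p = 0.00039), SMAD4 (-0.71, adjusted p = 0.012) and FOSL1 (-1.02, adjusted p = 0.017) fell in DMSO, FOSL1 in 18 of 20 other fits. FOSL1 is also an AP-1 gene, and under XMU-MP1 the knockdown raised it (1.28, adjusted p = 0.0050). There SMAD4 fell as well (-1.35, adjusted p = 0.00022), and RUNX1 did not pass (-0.07, adjusted p = 0.81).

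XMU-MP1 lowered 3 of these 13 in control siRNA cells and raised 0, where 955 of the 18143 genes tested fell and 725 rose. SMAD3, a TGF-β effector, had 24.8 ± 5.32 CPM in siC_XMU, against 98.8 ± 11.8 CPM in siC_DMSO, and fell by 1.99 (adjusted p = 0.00058). RUNX1 fell by 1.42 (adjusted p = 0.0020) and FOSL1 fell by 2.09 (adjusted p = 0.0020). In the knockdown 2 rose and 2 fell, or 1 fell without a or b of siYT_XMU or b or c of siYT_DMSO, where 761 of all genes tested rose and 1437 fell. The interaction was positive and past the threshold for 3 of the 13, FOSL1 (2.31, adjusted p = 0.020), JUNB (1.40, adjusted p = 0.035) and RUNX1 (1.25, adjusted p = 0.041). Of the 18143 genes tested, 156 had a called positive interaction. Interaction calls depended strongly on the libraries used: 470 genes were called in either direction here, and 86 to 1006 when a library was left out. The other 3 lists had 0 called in either direction by edgeR, with 0 of the 25, 22 and 11 tested; without library c of siYT_XMU, 3 upstream and 2 signature genes had a called negative interaction.

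The directional shares of all genes depend on the scaling. With counts after TMM scaling, 3219 genes rose and 3381 fell for the knockdown in XMU-MP1, and 2929 rose and 2897 fell in DMSO. On log2(FPKM + 1), 1473 rose and 5423 fell in XMU-MP1 with the median of all genes at -0.40, and 1869 rose and 3464 fell in DMSO with the median at -0.13. For XMU-MP1 in the knockdown 761 rose and 1437 fell with TMM, and 471 rose and 2835 fell on that FPKM scale with the median at -0.29. All calls for the 9 factors named above kept their direction in every one of these fits.

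**Figure D5:**
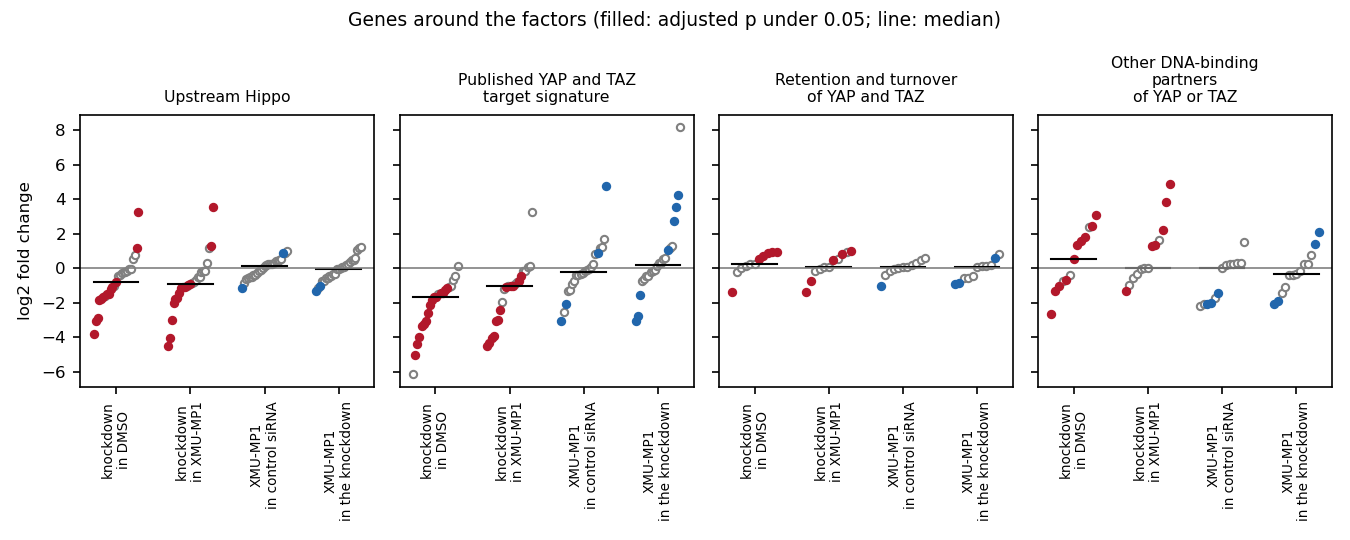
Log2 fold change (y axis) of the tested genes of each list in the 4 comparisons, knockdown over control siRNA first and XMU-MP1 over DMSO after; filled points have an adjusted p under 0.05 and lines are medians. In the signature panel the knockdown medians lie at -1.02 in XMU-MP1 and -1.66 in DMSO, and no filled knockdown point lies above 0.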

How the data were processed

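Poly(A) RNA from 12 MCF10A libraries was sequenced as paired ends on a stranded library kit, per the labels' protocols. The submitters' processing notes name cutadapt, FastQC, HISAT2, StringTie, edgeR and GRCh38.p13; the counting method and its use of strand are not given in the sources used here. The deposited table holds raw counts and the authors' FPKM per gene, per the file headers. Counts were tested with edgeR 4.0.16 in R 4.3.3 (TMM scaling, filterByExpr by group, quasi-likelihood test, 1 mean per group over all 12 libraries, Benjamini-Hochberg over 18143 genes, threshold 0.05). CPM is TMM-scaled, and a count of 0 entered means and fits as 0, with the limit of 3 counts, which covers counting error only, given beside it. The SE of a log2 fold change was derived from the test, as its size over the square root of the quasi-likelihood F statistic. Levels between genes use the deposited FPKM, in which a count of 0 is written 0.0001. Alternatives were RLE size factors, no filter, DESeq2 1.42.0, limma-voom and limma-trend (limma 3.58.1; log2(FPKM + 0.1) and log2(FPKM + 1), mean FPKM of at least 0.5 in 1 group), only the groups compared, a replicate block and each library left out. All 9 factors are named, with the 2 most correlated genes (Pearson r of log2 CPM with a prior count of 2, mean FPKM of at least 5 in the highest group) per TEAD and VGLL gene and, per list, up to 3 genes a direction with the smallest adjusted p in the knockdown in DMSO and XMU-MP1 in control siRNA. The members and lists were chosen with earlier results of these data known. Genes named in a further comparison are those the rule already names.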

Additional observations from a re-analysis of the deposited data

How the results depend on the processing

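Every called change of a factor kept its sign in all fits run. The knockdown called 7 to 8 of the 9 factors in DMSO and 6 to 7 in XMU-MP1 when a library was left out (4451 to 7099 and 4896 to 7312 of all genes). Counts for XMU-MP1 varied more: leaving out a library gave 0 to 3 factors and 629 to 2661 genes in control siRNA cells, 1 to 4 factors and 1159 to 2885 genes in the knockdown, and 0 to 1 factors and 86 to 1006 genes for the interaction. In control siRNA cells, against 1 factor and 1680 genes, DESeq2 called 2 factors and 3089 genes, limma-voom 5 and 3314, the fit on only the groups compared 6 and 4044, log2(FPKM + 1) 3 factors and log2(FPKM + 0.1) 960 genes. In the knockdown, against 4 factors and 2198 genes, limma-voom called 2 factors, the fit on only the groups compared 1 factor and 866 genes, DESeq2 3717 genes and log2(FPKM + 1) 3306 genes. For the interaction, against 0 factors and 470 genes, DESeq2 called 1 factor and 1828 genes, limma-voom 1 and 1136, and no filter and log2(FPKM + 1) 1 factor each. The cause of these shifts was not tested.

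Changes of sign were seen only for values that passed no threshold. TEAD4 under XMU-MP1 in the knockdown was -0.21 on log2(FPKM + 0.1), -0.15 on log2(FPKM + 1) and -0.19 to 0.57 with a library left out. The interaction of TEAD2 was 0.027 with RLE size factors and -0.35 to 0.20 with a library left out, and on log2(FPKM + 1) the interactions of YAP1 and VGLL3 were 0.017 and 0.38. VGLL4 under XMU-MP1 in control siRNA cells was 0.0047 in the fit on only the groups compared and -0.13 to 0.14 with a library left out, and in the knockdown in DMSO it was -0.083 to 0.67. The median of all genes moved by over 0.1 on the FPKM scales in 4 of the 5 contrasts (-0.62 at the lowest, for the knockdown in XMU-MP1 with pseudocount 0.1), and with DESeq2 it was 0.16 for that contrast and 0.27 for the interaction.

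Whether the letters a, b and c pair libraries is not settled by the labels or by the check used. Of 18 same-letter pairs, 2 had a correlation of deviations over 0.1 (-0.02 to 0.17). However, 11 of 12 libraries had their highest correlation with a library of the same letter, a hint from the data and not the design. The main fit has no block for the letter. With a replicate block the knockdown called 8 factors and 5799 genes in DMSO and 7 factors and 6402 genes in XMU-MP1, and XMU-MP1 called 1 factor and 1718 genes in control siRNA cells and 3 factors and 2110 genes in the knockdown, with 0 factors and 471 genes for the interaction. TEAD2 passed under the block in both knockdown comparisons (adjusted p = 0.029 in DMSO and 0.018 in XMU-MP1), and WWTR1 under XMU-MP1 in the knockdown did not (0.056). Depth limits VGLL1 and WWTR1 most, in siYT_XMU library c above all, where 3 counts are 0.622 CPM.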

Other observations

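The deposited lengths differ widely between the factors: dividing counts by FPKM gave a median length of 12.1 kb for VGLL3 and 9.83 kb for TEAD1, against 1.20 kb for VGLL1 and 1.80 kb for TEAD4. Ranking the same cells by CPM would therefore put TEAD1 above TEAD4 in siC_DMSO (101 ± 9.53 CPM and 37.8 ± 3.91 CPM), while FPKM puts TEAD4 above TEAD1 (24.4 FPKM against 11.96 FPKM). The ratio of TEAD3 to TEAD4 in FPKM was 12.2 ± 3.20 in siYT_XMU and 34.7 ± 17.7 in siYT_DMSO, against 0.661 ± 0.0655 in siC_XMU and 0.741 ± 0.133 in siC_DMSO (SD, n = 3 each).

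VGLL1 had its highest CPM in library a in each of the 4 groups, with 1.20 CPM in siYT_XMU, 0.334 in siYT_DMSO, 3.09 in siC_XMU and 7.93 in siC_DMSO, and this was seen after its values were known and was not tested. Antisense or nested genes over WWTR1 (WWTR1-AS1, 0 to 31 counts), TEAD1 (LOC107984313, 0 to 19 counts), TEAD2 (DKKL1 and CD37, up to 7 and 15 counts) and VGLL1 (MIR934, 0 counts) held few counts in every library, while VGLL4 also overlaps LOC105376952 with 0 to 122 counts.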
